A study of Mus musculus with 138 samples.

Results

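Cyp26a1, Hoxa9, Onecut2, Dll1, Wnt3, Irs1 and Adra2b are 7 genes of signalling and patterning, picked from the 25900 genes of 2 deposited count tables because they rose in single mouse embryos after SMARCA5 was removed with TrimAway. The rule had no threshold and used the comparisons of anti-SMARCA5 embryos with their controls, so values from those comparisons are given as a description without a test. SMARCA5 is the ATPase of chromatin remodelling complexes that slide and space nucleosomes. The study, whose title ties maternal SMARCA5 to the major wave of zygotic genome activation, measured polyadenylated RNA in 2-cell embryos, 1 embryo per library.

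In the deletion experiment, the maternal deletion group had the genotype label Smarca5 +/- (mat KO), from mothers without Smarca5 mated to wild-type males, and the wild-type group was labelled Smarca5 +/+. Titles of both groups name matKO females, and the promoter that drives a Cre is not given in the sources used here. Maternal loss and the heterozygous genotype of the embryo cannot be told apart. The second experiment used TrimAway, in which an injected antibody leads its target protein to degradation through the ubiquitin ligase TRIM21. Wild-type embryos received an antibody to SMARCA5 (anti-SMARCA5) or IgG at least 24 hours before collection, or were uninjected. Whether Trim21 RNA was injected together with either antibody is not given in the sources used here. Each replicate is a pool of embryos from several matings or injections, called technical by the submitters, so p-values measure the spread between embryos of these pools. After libraries under 100000 counts were left out, 22 wild-type, 28 maternal deletion, 31 anti-SMARCA5, 20 IgG and 15 uninjected embryos remained, 116 of 135 in all.

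Total counts ran from 109007 to 12004992 in wild type, 264566 to 8391480 in maternal deletion, 761491 to 4009610 in anti-SMARCA5, 236128 to 4139661 in IgG and 365597 to 2351642 in uninjected embryos. Smarca5 RNA was below the lowest wild-type embryo in 24 of 28 maternal deletion embryos, and none of the other 4 exceeded the wild-type median of 362 CPM (the standard measure of counts relative to library size, here scaled by TMM within each table). An earlier account of these data had 3 libraries of replicate 2 against their labels, and they were left out in an alternative: maternal deletion well A04 (Smarca5 at 319 CPM) and wild-type wells G05 (153 CPM) and H05 (172 CPM). Trim21 RNA was above 3 counts in 30 of 31 anti-SMARCA5 embryos, in 0 of 10 IgG embryos of replicate 1, in 8 of 10 of replicate 3 and in 0 of 15 uninjected ones. Its median was 1313 CPM in anti-SMARCA5, 0 in IgG replicate 1 and 282 CPM in IgG replicate 3. Comparisons with IgG pool these 2 IgG replicates, so the antibody and the level of Trim21 RNA cannot be told apart in them. All 6 IgG libraries of replicate 2 were left out for depth. The 2-cell marker list was detected in all 5 groups, with a lowest summed level of 88.9 CPM in a maternal deletion embryo.

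These genes normally act later, when the embryo is patterned. Retinoic acid, Notch and Wnt signals set the axes and the order of body segments, and Hox proteins give cells their position along the trunk. CYP26A1 breaks down retinoic acid, DLL1 is a Notch ligand and WNT3 is a secreted signal needed for the primitive streak. ADRA2B is a receptor for adrenaline and noradrenaline, IRS1 is the adaptor that carries the insulin signal into the cell, and HOXA9 and ONECUT2 are homeobox transcription factors.

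In brief, each of the 7 genes was detected in at most 2 of 22 embryos of the wild-type group of the deletion experiment and in 6 to 23 of 28 maternal deletion embryos. Of 31 anti-SMARCA5 embryos, 21 carried at least 5 of the 7 genes. A gene counted as detected in an embryo when it had more than 3 counts. The median number of the 7 genes detected was 0 in wild type (range 0 to 2), 3 in maternal deletion (0 to 7), 2 in uninjected (0 to 4), 3 in IgG (0 to 6) and 6 in anti-SMARCA5 embryos (1 to 7). All 3 wells without an embryo had 0 counts of every one of them. These wells held 823, 1875 and 453 counts in total, too few to show genes at such levels, so nothing is read from this. In bulk RNA of a whole embryo, fewer blastomeres expressing a gene and less RNA per blastomere cannot be told apart.

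**Figure D1:**
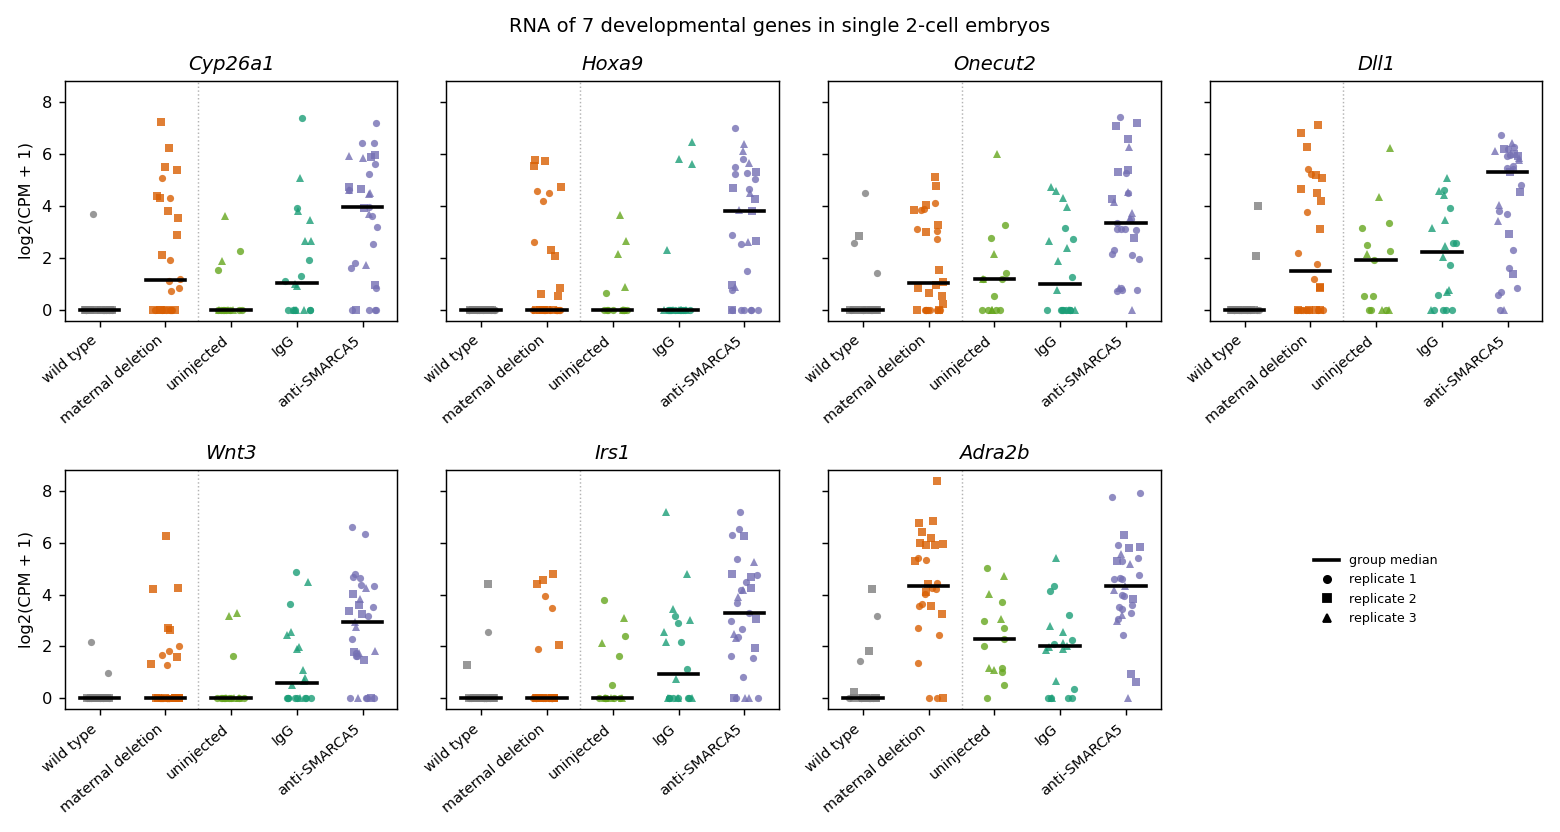
RNA level of each gene (vertical axis, log2 of CPM + 1) in single embryos of the 5 groups, with replicates by symbol and the group median as a bar. CPM was scaled separately for the 2 experiments, left and right of the dotted line. Wild-type medians are 0 for all 7 genes, and anti-SMARCA5 medians lie between 6.80 and 39.1 CPM.

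Cyp26a1 (ENSMUSG00000024987) lies on chromosome 19 from 37697808 to 37701528 (GRCm38, plus strand). Its promoter is shown because textbook accounts place retinoic acid response elements just upstream of this gene. The RefSeq window on GRCm38.p6 runs from 250 bases before to 50 bases after the annotated start, at chr19:37697558-37697857 on the plus strand, with CG dinucleotides in capitals.
Cyp26a1: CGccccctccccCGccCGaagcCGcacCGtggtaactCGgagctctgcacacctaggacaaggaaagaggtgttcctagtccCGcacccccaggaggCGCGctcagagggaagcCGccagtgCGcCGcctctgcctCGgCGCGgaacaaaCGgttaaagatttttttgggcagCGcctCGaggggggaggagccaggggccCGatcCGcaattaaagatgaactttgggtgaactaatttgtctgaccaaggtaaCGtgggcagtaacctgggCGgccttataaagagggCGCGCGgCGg
The window held 26 CG, against a median of 7 over 32851 RefSeq windows of 300 bases. A direct repeat with a spacer of 5 bases, searched as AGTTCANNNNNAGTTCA on both strands, occurred in 8 of the 32851 windows (0.0244%), and Cyp26a1 was the single gene of the 6 searched that held it. Both units were fixed as AGTTCA and other spellings were not searched. The share, and the absence from the other genes, therefore cover these letters only. On the gene's strand the match spans chr19:37697776-37697792, and the repeated units are in capitals.
Cyp26a1 repeat: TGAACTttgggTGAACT
A match of letters is a description and no measure of binding.

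In maternal deletion embryos Cyp26a1 ranged from 0 through a median of 1.20 to 148 CPM and was detected in 12 of 28. In wild type 21 of 22 embryos had 0 counts and the other had 3, so detection was 0 of 22, which allows a share of up to 13.6% of embryos. The distributions overlapped at 0, and 9 maternal deletion embryos lay above every wild-type embryo. The log2 change was 5.80 (standard error (SE) 1.17, adjusted p = 6.09e-05, edgeR quasi-likelihood test without a filter on low counts, Benjamini-Hochberg over all genes), a size that rests on those 3 wild-type counts. Well D03 of replicate 2 held 890 of the group's 2119 counts of Cyp26a1.

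In anti-SMARCA5 embryos Cyp26a1 ran from 0 through a median of 14.7 to 147 CPM and was detected in 22 of 31. In IgG embryos it ran from 0 through 1.05 to 167 CPM and was detected in 9 of 20. In uninjected embryos it ran from 0 through 0 to 11.2 CPM and was detected in 2 of 15. The highest embryo of all 3 groups was thus an IgG embryo, well A10 of replicate 1, with 242 of the 371 IgG counts of Cyp26a1 and 0 of Trim21. The log2 change of Cyp26a1 was 4.62 (SE 0.90) against uninjected and 1.08 (SE 0.71) against IgG, both used by the rule.

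Dll1 (ENSMUSG00000014773, chromosome 17, 15367354 to 15376872, minus strand) overlaps the long noncoding RNA A930024N18Rik on the other strand, and whether counting used strand is not stated. In maternal deletion embryos Dll1 ran from 0 through 1.84 to 139.8 CPM and was detected in 13 of 28. In wild type it ran from 0 through 0 to 14.8 CPM and was detected in 2 of 22, both of replicate 2. One of these was well G05, a library against its label, with 31 of the group's 57 Dll1 counts. Dll1 rose by 4.08 on the log2 scale (SE 0.96, edgeR adjusted p = 0.000449, no low-count filter), and by 5.89 without the 3 libraries against their label.

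Within the anti-SMARCA5 group Dll1 had the highest median of the 7 genes, 39.1 CPM (0 to 107 CPM, detected in 24 of 31). The IgG median of Dll1 was 3.76 CPM (0 to 32.4, detected in 12 of 20) and the uninjected median 2.74 CPM (0 to 74.8, detected in 7 of 15). In 16 of 31 anti-SMARCA5 embryos Dll1 was above every IgG embryo, the most of the 7 genes, and in 3 of 31 it was above every uninjected embryo, the fewest. Its log2 changes were 2.25 (SE 0.61) against IgG and 2.18 (SE 0.73) against uninjected embryos.

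Wnt3 (ENSMUSG00000000125, chromosome 11, 103774150 to 103817957, plus strand) was detected in 6 of 28 maternal deletion embryos (0 through 0 to 75.7 CPM) and in 1 of 22 wild-type embryos (0 through 0 to 3.57 CPM). Most of its counts came from a single embryo, since well E05 of replicate 2 held 503 of 617. The log2 change of Wnt3 was 4.12 (SE 1.11, edgeR adjusted p = 0.00168, no low-count filter). Without wells D03 and E05 of replicate 2, it was 3.08 (adjusted p = 0.0101). In anti-SMARCA5 embryos Wnt3 ran from 0 through 6.80 to 96.3 CPM (18 of 31 detected), in IgG from 0 through 0.513 to 28.4 CPM (6 of 20) and in uninjected from 0 through 0 to 8.72 CPM (3 of 15). Its log2 changes were 1.74 (SE 0.70) against IgG and 3.65 (SE 0.90) against uninjected.

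Adra2b (ENSMUSG00000058620) lies on chromosome 2 from 127363208 to 127367221 (plus strand) and was the most widely detected of the 7 genes after deletion. Its promoter, chr2:127362929-127363228 on the plus strand in GRCm38.p6 from RefSeq, is shown with CG in capitals as the CG-rich end of the group.
Adra2b: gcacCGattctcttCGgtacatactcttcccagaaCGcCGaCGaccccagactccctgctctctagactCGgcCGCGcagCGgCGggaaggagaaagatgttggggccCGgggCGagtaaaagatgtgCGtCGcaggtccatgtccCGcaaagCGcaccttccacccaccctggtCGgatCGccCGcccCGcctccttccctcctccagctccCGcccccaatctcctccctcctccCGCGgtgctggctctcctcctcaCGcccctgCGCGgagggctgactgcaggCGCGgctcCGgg
With 29 CG, this window ranked at percentile 88.3 of all windows by CG count, and Irs1 (28), Cyp26a1 (26), Wnt3 (24) and the 2 Dll1 windows (24 and 15) were also above the median of 7. The letters GGGCGG, on either strand, occurred in the windows of Adra2b, Cyp26a1, Hoxa9, Irs1 and Wnt3, and in 35.7% of all windows.

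Adra2b was detected in 23 of 28 maternal deletion embryos (0 through 19.2 to 336 CPM) and in 1 of 22 wild-type embryos (0 through 0 to 17.4 CPM). In 16 maternal deletion embryos it was above every wild-type embryo. Without the low-count filter Adra2b rose by 5.45 on the log2 scale (SE 0.85, edgeR adjusted p = 7.28e-07). It was the 1 gene of the 7 that passed the filter in this comparison, where 56.6% of 8518 genes changed and 30.3% rose, and with it the change was 5.55 (SE 0.86, adjusted p = 6.36e-07). It passed only through the maternal deletion group, where it is high, so nothing is read from its place among the filtered genes. In anti-SMARCA5 embryos Adra2b ran from 0 through 18.9 to 238 CPM (28 of 31), in IgG from 0 through 3.03 to 42.1 CPM (9 of 20), and in uninjected from 0 through 3.84 to 31.4 CPM (9 of 15). The log2 changes of Adra2b were 2.61 (SE 0.59) against IgG and 2.36 (SE 0.62) against uninjected embryos.

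Irs1 (ENSMUSG00000055980, chromosome 1, 82233101 to 82291416, minus strand) overlaps Gm9747 on the other strand. It was detected in 6 of 28 maternal deletion embryos (0 through 0 to 26.6 CPM) and 1 of 22 wild-type embryos (0 through 0 to 20.0 CPM). That wild-type embryo, well H05 of replicate 2, is one of those against their label and held 14 of the group's 18 Irs1 counts. The log2 change of Irs1 was 1.49 (SE 1.04, edgeR adjusted p = 0.233, no low-count filter) with all libraries. It was 4.84 (adjusted p = 0.00132) without the 3 libraries against their label. In anti-SMARCA5 embryos Irs1 ran from 0 through 8.83 to 146 CPM (22 of 31), in IgG from 0 through 0.931 to 143 CPM (10 of 20) and in uninjected from 0 through 0 to 12.9 CPM (4 of 15). Its log2 changes were 1.05 (SE 0.71) against IgG and 3.74 (SE 0.87) against uninjected.

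Hoxa9 (ENSMUSG00000038227, chromosome 6, 52223100 to 52231089, minus strand, overlapping Mir196b on the same strand) is shown as the CG-poor end of the group. Its RefSeq window, chr6:52227321-52227620 on the minus strand in GRCm38.p6, lies inside the deposited gene span, so it is the start of 1 annotated transcript.
Hoxa9: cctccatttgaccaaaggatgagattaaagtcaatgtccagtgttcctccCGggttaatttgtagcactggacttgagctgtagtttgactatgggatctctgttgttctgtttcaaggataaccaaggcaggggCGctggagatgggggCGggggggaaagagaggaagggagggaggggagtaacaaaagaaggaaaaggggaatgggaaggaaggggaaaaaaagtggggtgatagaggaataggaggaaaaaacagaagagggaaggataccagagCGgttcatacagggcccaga
This window held 4 CG, at percentile 38.0 of all windows.

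Hoxa9 was the 1 gene of the 7 without a single wild-type count. All 22 wild-type embryos had 0 counts of it among 52405178 in total, and 10 of 28 maternal deletion embryos were detected, with 892 counts in all (0 through 0 to 54.1 CPM). Pooled over embryos, Hoxa9 was 202-fold higher in maternal deletion (11.5 CPM) than the wild-type floor of 3 counts over the group (0.0570 CPM). Hoxa9 rose in the fit without a low-count filter (edgeR adjusted p = 1.87e-05). Its fitted log2 change is no bound, because the wild-type group is at 0. Among the 11 maternal deletion embryos with at least 2000000 counts, Hoxa9 had 800 counts, and among the 6 wild-type embryos as deep, up to 12004992 counts, it had 0.

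In anti-SMARCA5 embryos Hoxa9 ran from 0 through 12.8 to 127 CPM and was detected in 20 of 31. In IgG embryos it was at 0 in all 10 of replicate 1 and detected in 4 of 10 of replicate 3, up to 87.4 CPM. In uninjected embryos it was detected in 2 of 15, both of replicate 3, with a highest value of 11.6 CPM. The log2 changes of Hoxa9 were 1.24 (SE 0.81) against IgG and 4.18 (SE 0.93) against uninjected. Without replicate 1 of both groups, the change of Hoxa9 against IgG was 0.39. Without replicate 3, the IgG embryos left are all at 0 and the fitted size is no bound.

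Onecut2 (ENSMUSG00000045991, chromosome 18, 64340364 to 64398486, plus strand) was detected in 13 of 28 maternal deletion embryos (0 through 1.03 to 33.5 CPM) and in 1 of 22 wild-type embryos (0 through 0 to 21.8 CPM). The log2 change of Onecut2 was 2.09 (SE 0.94, edgeR adjusted p = 0.0563, no low-count filter). With the replicate as a block, it was 2.58 (adjusted p = 0.0349), past the threshold. The highest maternal deletion embryo for Onecut2 was well A04, a library against its label, and without the 3 such libraries the change was 1.81 (adjusted p = 0.104). In anti-SMARCA5 embryos Onecut2 ran from 0 through 9.04 to 169 CPM (25 of 31), in IgG from 0 through 1.04 to 25.2 CPM (8 of 20) and in uninjected from 0 through 1.25 to 63.2 CPM (3 of 15). Its log2 changes were 2.43 (SE 0.70) against IgG and 2.42 (SE 0.80) against uninjected.

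Together, 5 of the 7 genes (Cyp26a1, Hoxa9, Dll1, Wnt3 and Adra2b) rose after maternal deletion in the fit without a low-count filter, where 49.6% of 20995 genes changed and 31.8% rose. This comparison uses embryos the rule did not use. With the replicate block 6 of the 7 rose, where 48.7% of genes changed and 31.8% rose. With DESeq2, 4 of the 7 passed (Cyp26a1, Hoxa9, Dll1 and Adra2b), where 46.3% changed and 26% rose. Two-sided permutation tests of mean log2(CPM + 1), unadjusted, gave p = 1e-05 for Adra2b (the smallest that 100000 resamples can give), 0.00034 for Cyp26a1, 0.00046 for Dll1, 0.00091 for Hoxa9, 0.00659 for Onecut2, 0.0114 for Wnt3 and 0.213 for Irs1. The same permutation tests within replicates gave 1e-05 for Adra2b, 0.00056 for Cyp26a1, 0.00019 for Dll1 and 0.00109 for Hoxa9. They gave 0.0193 for Onecut2, 0.0157 for Wnt3 and 0.21 for Irs1.

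The 2 collections differed. In replicate 1 alone, 3 of the 7 genes passed the edgeR test (Hoxa9, Dll1 and Adra2b), where 24.4% of all genes changed and 11.4% rose. In replicate 2 alone 6 did (all but Irs1), where 43.5% changed and 33.4% rose. Cyp26a1 had a log2 change of 1.56 (SE 1.24) in replicate 1, which did not pass. In replicate 2 all 14 wild-type embryos were at 0, and pooled over embryos Cyp26a1 was 495-fold above the floor of 3 counts over that group. Wnt3 had a change of -0.13 (SE 0.81) in replicate 1, and in replicate 2, with wild type again at 0, it was 145-fold above that floor. This pooled value rests mostly on 1 embryo, since well E05 held 503 of the 610 Wnt3 counts of these 15 embryos, whose median was 0. The interaction test called the replicates different for Cyp26a1 (adjusted p = 0.0211) and Wnt3 (adjusted p = 0.0161), while the size of the difference cannot be measured against a group at 0. In this interaction fit without a low-count filter 3.23% of genes passed. Onecut2 (adjusted p = 0.0806), Adra2b (0.0829), Dll1 (0.702) and Irs1 missed its threshold, and for Hoxa9, at 0 in wild type, no difference could be estimated. With the filter, where 0.763% of genes passed, Adra2b was the 1 member tested and missed the threshold too (adjusted p = 0.119). The replicates also differed in depth, with median totals of 702651 and 4686051 counts in maternal deletion embryos, and in sequencing lane, which cannot be told apart from the collection.

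**Figure D2:**
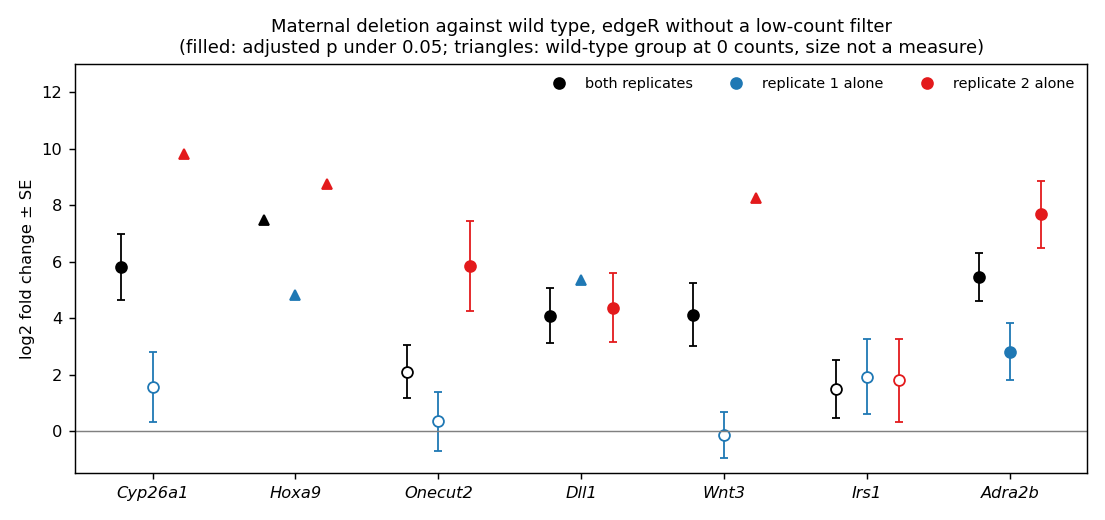
Log2 fold change ± SE of each gene in maternal deletion against wild-type embryos (vertical axis), fitted on both replicates, replicate 1 alone and replicate 2 alone. Filled points are past an adjusted p of 0.05, and triangles, drawn without SE, mark fits whose wild-type embryos were all at 0, so that their height is no measure of size. Wnt3 is at -0.13 in replicate 1 and is a triangle in replicate 2, and Dll1 passes in both.

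The samples differed in other transcripts too. Of 14 oocyte and egg markers, 12 were higher after deletion and 1 lower, and their summed level was 15572.5 CPM at the median against 5574.91 in wild type. Of 13 tested 2-cell stage markers, 9 were lower, with a summed median of 392.9 against 1938 CPM. Cumulus and granulosa markers, none of which passed the low-count filter, summed to 26.6 CPM at the median in maternal deletion (range 0 to 91.3) and 0 in wild type (0 to 45.5). Of these 13 genes, 2 (Inha and Ptx3) were at or under 3 counts in every maternal deletion embryo, against 9 in every wild-type embryo. Fibroblast and blood markers summed to 16.4 CPM in maternal deletion (0 to 237) and 0.895 in wild type (0 to 25.3). Of these 8 genes, 2 (Col1a2 and Ptprc) were at or under 3 counts throughout in maternal deletion, against 4 in wild type. In the TrimAway experiment, the fibroblast and blood list had medians of 37.3 CPM in anti-SMARCA5 (0.396 to 336), 11.8 in IgG (0 to 129) and 10.1 in uninjected embryos (0 to 95.7). Of its 8 genes, 1 was at or under 3 counts throughout in anti-SMARCA5, 2 in IgG and 1 in uninjected embryos, Col3a1 in each group. The cumulus and granulosa list had medians of 22.9 CPM in anti-SMARCA5 (3.46 to 164), 12.7 in IgG (0 to 47.0) and 12.8 in uninjected embryos (0.819 to 92.2). Of its 13 genes, 1 was at or under 3 counts throughout in anti-SMARCA5, 4 in IgG and 7 in uninjected embryos, Fshr in each group. Of 2 tested fibroblast and blood genes, 1 was higher against each control, Pdgfra, which is named here after its values were seen and did not pass against IgG with total counts only (edgeR adjusted p = 0.0694). Blastocyst lineage markers had summed medians of 259.6 CPM in anti-SMARCA5 (119 to 703), 195 in IgG (102 to 340) and 219.8 in uninjected embryos (68.4 to 281), with 4 of 7 higher and 1 lower against uninjected and 1 higher and 1 lower against IgG. Oocyte and egg markers had 4 of 13 higher and 1 lower against uninjected, and 2-cell markers 2 of 16 higher. Against IgG none changed in either list without the replicate block. With the block, where 28.1% of all genes changed, 6 of 16 2-cell markers were lower and 0 higher against IgG. Of 13 oocyte and egg markers, 4 were then higher and 0 lower. The part of these transcripts in the values of the 7 genes was not tested.

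All 7 genes were at higher levels in anti-SMARCA5 than in either control group by fitted log2 change, as the rule fixed, and the groups overlapped for each of them. Over the whole table, 3.03% of 10447 genes changed against IgG and 27.9% of 10750 against uninjected embryos, and nothing is read from the members' share. Both comparisons share the anti-SMARCA5 embryos. With the replicate block, 2835 genes changed against IgG in place of 317, and without replicate 1 the counts were 0 against IgG and 1 against uninjected embryos. Without replicate 1, the changes against IgG were 2.05 for Cyp26a1, 2.28 for Onecut2, 2.01 for Dll1 and 1.98 for Adra2b, and Wnt3 and Irs1 failed the low-count filter. The control groups differed from each other by 3.43 for Cyp26a1, 2.85 for Hoxa9, 2.61 for Irs1 and 1.75 for Wnt3 (IgG against uninjected, no low-count filter), and by -0.06 for Onecut2, -0.10 for Dll1 and -0.32 for Adra2b. These values are a description, since both groups also entered the rule. None of the 7 genes passed the low-count filter in that comparison. There, 0 of 9915 genes changed in edgeR (0%), with 1440 at an unadjusted p under 0.05 and 43 called by DESeq2. Without the filter 4.2% of genes changed.

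Per kilobase of exon (GENCODE vM21), Dll1 had the highest median level in anti-SMARCA5 embryos at 9.26 CPM per kb, followed by Cyp26a1 at 7.43, Adra2b at 4.72, Hoxa9 at 2.3, Wnt3 at 2.21, Irs1 at 0.965 and Onecut2 at 0.557. Each step in that order was smaller than the SD over embryos of either gene, which ran from 2.82 for Onecut2 to 17.1 for Cyp26a1. In maternal deletion embryos, Adra2b led at 4.79 CPM per kb, followed by Cyp26a1 at 0.604, Dll1 at 0.437 and Onecut2 at 0.0633, while Hoxa9, Wnt3 and Irs1 had medians of 0. These steps were again smaller than the SD of either gene.

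The next question was whether the same embryos carried the 7 genes. Of 31 anti-SMARCA5 embryos, 10 carried all 7, 21 carried at least 5 and 2 carried a single gene. Each replicate held embryos with all 7, namely 6 of 17 in replicate 1, 2 of 7 in replicate 2 and 2 of 7 in replicate 3. No IgG or uninjected embryo carried all 7, and 5 of 20 IgG embryos and 0 of 15 uninjected embryos carried at least 5. The IgG embryos with at least 5 were 1 of 10 in replicate 1 and 4 of 10 in replicate 3. In anti-SMARCA5 they were 11 of 17 in replicate 1 and 5 of 7 in each of replicates 2 and 3. In maternal deletion, 1 embryo carried all 7 and 7 of 28 carried at least 5, of which 6 were in replicate 2. In wild type 17 of 22 embryos carried none and no embryo more than 2.

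**Figure D3:**
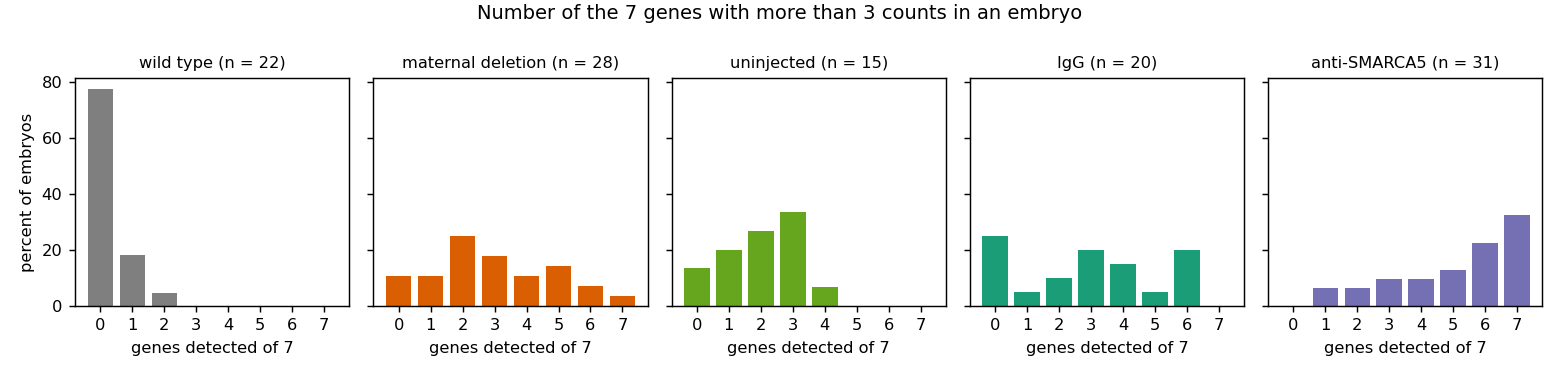
Percent of embryos (vertical axis) by how many of the 7 genes had more than 3 counts (horizontal axis), in the 5 groups. The median is 0 in wild type, 3 in maternal deletion, 2 in uninjected, 3 in IgG and 6 in anti-SMARCA5 embryos.

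Depth bears on detection. After each library was thinned to 100000 counts, with 1 count taken as detection, the median number of genes was 0 in wild type, 2 in maternal deletion, 1 in uninjected, 1.5 in IgG and 4 in anti-SMARCA5 embryos. At a level of at least 10 CPM the medians were 0, 2, 0, 0 and 4. Among libraries with at least 2000000 counts, the 11 maternal deletion embryos carried 2 to 6 genes (median 4) and the 6 wild-type embryos 0 or 1 (median 0).

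Single embryos show how uneven the genes were. The anti-SMARCA5 embryo in well H06 of replicate 1 carried all 7, with Dll1 at 107 CPM, Wnt3 at 96.3, Irs1 at 92.4, Cyp26a1 at 84.4, Adra2b at 59.1, Onecut2 at 37.9 and Hoxa9 at 31.9 CPM. By contrast, well C02 of replicate 2, the anti-SMARCA5 embryo with 0 counts of Trim21, had Cyp26a1, Wnt3 and Irs1 at 0, Hoxa9 at 5.29 CPM and Onecut2 at 5.82 CPM. After deletion, well D03 of replicate 2 had Adra2b at 336 CPM, Cyp26a1 at 148 and Dll1 at 139.8, but 0 counts of Wnt3 and Irs1. Well E05 of the same replicate had Dll1 at 111 CPM, Wnt3 at 75.7 and Irs1 at 22.9, with 3 counts of Onecut2. An IgG embryo, well A04 of replicate 3, had Irs1 at 143 CPM and Hoxa9 at 54.8 CPM with 0 counts of Onecut2.

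**Figure D4:**
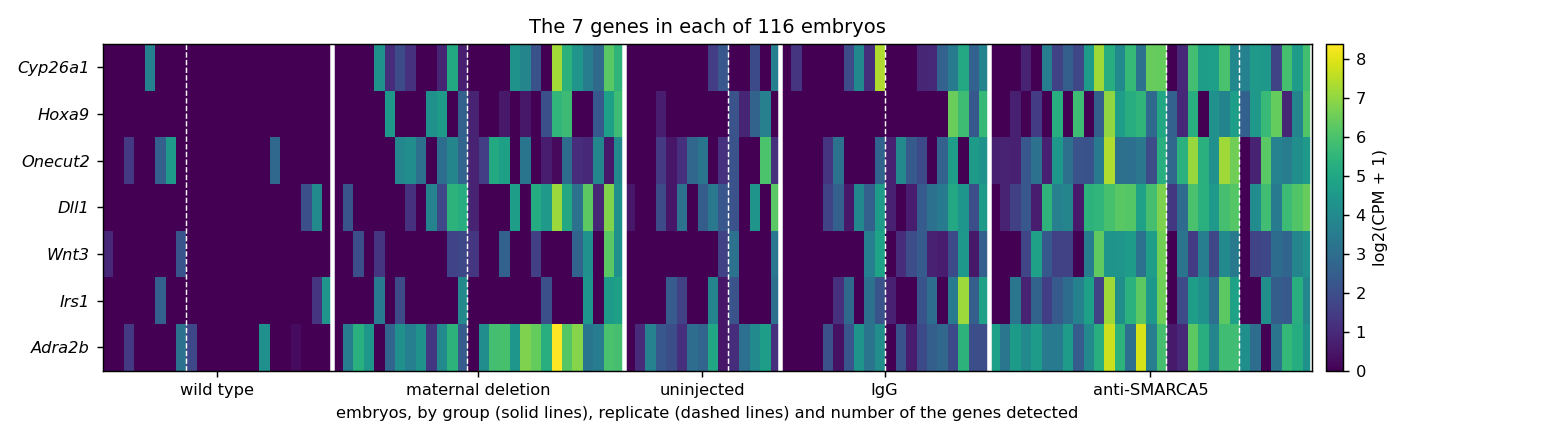
Level of each gene (rows, colour as log2 of CPM + 1) in each of 116 embryos (columns), ordered by group, replicate and number of the genes detected. Wild-type columns are mostly dark, with 17 of 22 embryos carrying none of the genes, and 10 of 31 anti-SMARCA5 columns carry all 7.

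Across the 31 anti-SMARCA5 embryos, all 21 pairs of the genes had a positive Spearman correlation of log2(CPM + 1), with a median of 0.48, and 17 passed a permutation test adjusted over the 21 pairs. The strongest pair was Cyp26a1 and Dll1 (Pearson r = 0.84, permutation p = 1e-05, adjusted p = 0.000158; rho = 0.77, permutation p = 1e-05, adjusted p = 0.00021). Without the 2 embryos farthest from the median of Cyp26a1, r was 0.80. Dll1 was also tied to Irs1 (r = 0.69, rho = 0.71, permutation p = 2e-05, adjusted p = 0.00021) and to Wnt3 (r = 0.70, rho = 0.69, permutation p = 7e-05, adjusted p = 0.00049). Without the 2 embryos farthest from the median of Dll1, these r were 0.61 and 0.63. The weakest pair was Hoxa9 and Adra2b (r = 0.13, rho = 0.05, permutation p = 0.776). The genes were chosen for their levels in these embryos, so these p-values are no independent support for the choice. These embryos share library method and scaling, and with CPM of the total count 11 of 21 pairs passed. The number of positive pairs was 21 of 21 within replicate 1, 20 within replicate 2 and 18 within replicate 3. For comparison, between 1.59% (Onecut2) and 6.07% (Hoxa9) of the other 10749 tested genes had a rho above 0.5 with a given member. Among its 6 partners of the 7 genes, 5 exceeded 0.5 for Irs1, 4 for Dll1, 3 for Cyp26a1, Onecut2 and Wnt3, and 1 for Hoxa9 and Adra2b.

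Across the 28 maternal deletion embryos, 19 of 21 pairs were positive, with a median rho of 0.26. Cyp26a1 and Dll1 again formed the strongest pair (r = 0.62, permutation p = 0.00046, adjusted p = 0.00483; rho = 0.58, permutation p = 0.00178, adjusted p = 0.0374), the single pair of the 21 past the threshold by rho, while 2 passed by r. Without the 2 embryos farthest from the median of Cyp26a1, r was 0.48. Wnt3 and Irs1 came next (r = 0.70, adjusted p = 0.00483; rho = 0.51, permutation p = 0.00545, adjusted p = 0.0572), with r at 0.49 without the 2 embryos farthest from the median of Wnt3. Within replicates, 15 of 21 pairs were positive in each. Whether the pairs were tied less closely here than in anti-SMARCA5 embryos was not tested.

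Trim21 RNA, at or under 3 counts in every uninjected embryo, was compared with the 7 genes among anti-SMARCA5 embryos. All 7 rho values were positive, and 5 passed after adjustment over 21 relations of the 7 genes with Trim21, total count and genes detected. The genes vary together, so these are not separate results. They were also chosen for their levels in these embryos, so the p-values are no independent support for the choice. Adra2b was highest (r = 0.65, permutation p = 5e-05, adjusted p = 0.000525; rho = 0.73, permutation p = 2e-05, adjusted p = 0.00042). Without the 2 embryos farthest from the Trim21 median its r was 0.63. Dll1 (rho = 0.68, r = 0.52), Irs1 (rho = 0.67, r = 0.56), Cyp26a1 (rho = 0.64, r = 0.59) and Wnt3 (rho = 0.53, r = 0.51) also passed, with adjusted permutation p from 0.000683 to 0.0102 for rho and r between 0.45 and 0.60 without the 2 farthest embryos. Hoxa9 (rho = 0.23, r = 0.18, permutation p = 0.21 and 0.382) and Onecut2 (rho = 0.31, r = 0.24, permutation p = 0.0945 and 0.193) did not pass. With the replicate block 6 passed, Onecut2 included (rho = 0.52, adjusted permutation p = 0.009). Within replicate 1, 5 of 7 passed, and within the 7 embryos of replicate 3 none did, with rho from -0.75 to 0.54 in the permutation test.

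Of all 10749 tested genes, 5.26% had a rho above 0.5 with Trim21, and the median was -0.06. The 7 genes, unlike the tested genes as a whole, were chosen for rises in these embryos. The 10 embryos with all 7 genes had 1279 to 7781 CPM of Trim21 (median 3652), the 11 with 5 or 6 genes had 292 to 5059 (median 1073) and the 10 with 4 or fewer had 0 to 2435 (median 836). The ranges overlapped. Median total counts of the same embryos were 1760791, 1481635 and 1266932, and their part in the number of genes detected was not tested. Hoxa9 was related to the total count (rho = 0.50, r = 0.46, permutation p = 0.00471, adjusted p = 0.0165), and its r was 0.59 without the 2 embryos farthest from the median total. It was also lower where more genes were detected at equal depth (rho = -0.43, r = -0.36, permutation p = 0.0155 and 0.0397, adjusted p = 0.0465 and 0.119), with a rho of -0.72 within replicate 1 (adjusted permutation p = 0.00935) and 0.46 within replicate 3 (adjusted permutation p = 0.529). Within the 17 embryos of replicate 1, all 7 genes had a positive rho with the total count, with a median of 0.54, and 3 passed the permutation test. Within the 7 embryos of replicate 3, all 7 genes had a negative rho with the total count, from -0.89 to -0.04, and none passed the permutation test. Among the 10 IgG embryos of replicate 3, none of the 7 genes passed against Trim21, with rho from -0.21 to 0.30 and a smallest permutation p of 0.398 (adjusted p = 0.814) by rho. Whether the relation differs between the antibodies was not tested.

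**Figure D5:**
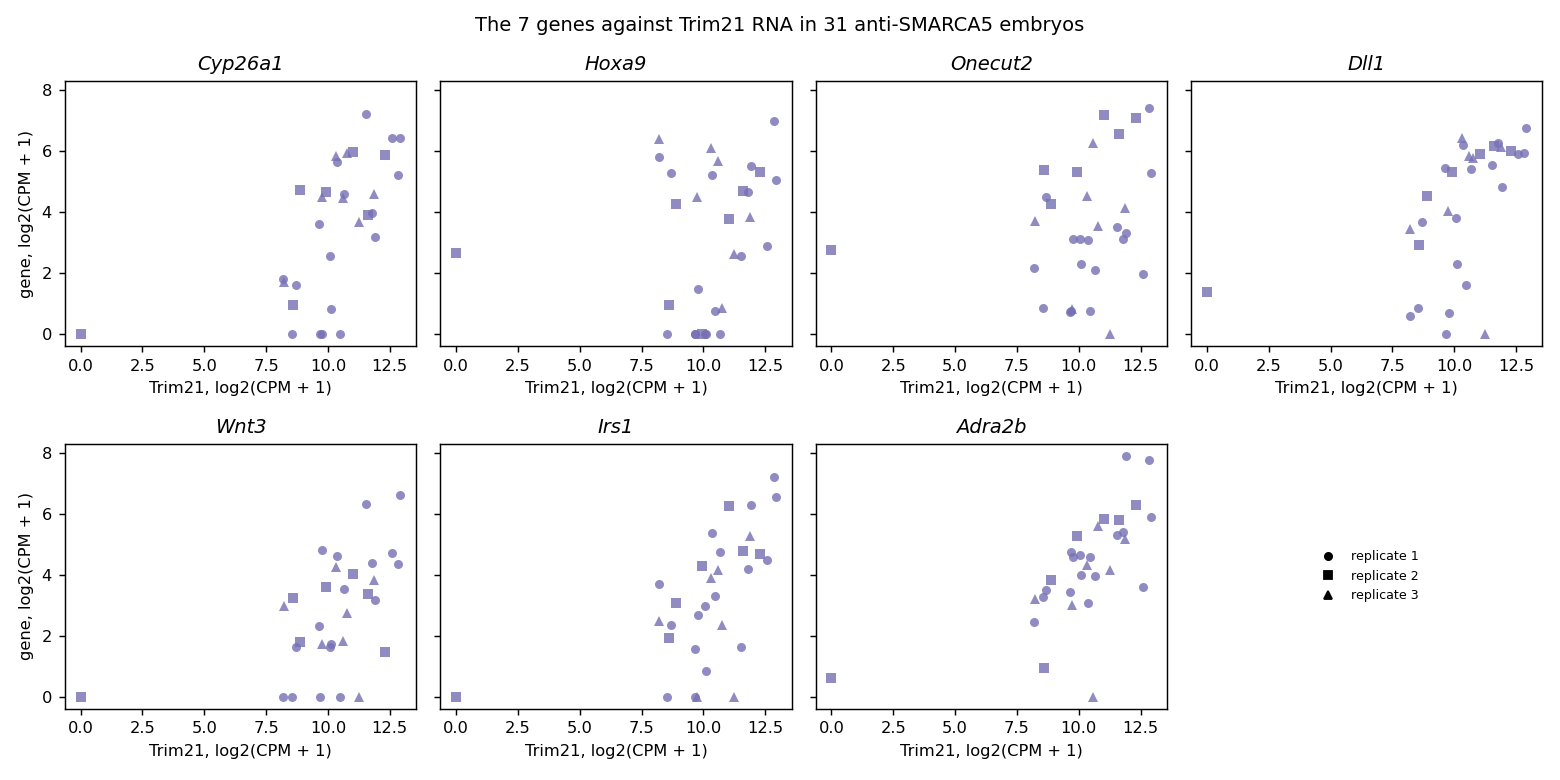
Level of each of the 7 genes (vertical axis) against Trim21 RNA (horizontal axis), both as log2 of CPM + 1, in 31 anti-SMARCA5 embryos with replicates by symbol. Adra2b rises most steadily (rho = 0.73) and Hoxa9 least (rho = 0.23), and the embryo at the left has 0 counts of Trim21.

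Other genes of the same pathways were read from lists drawn up by name. In the Notch list, 10 of 18 tested genes rose after maternal deletion and 1 fell, where 56.6% of all genes changed and 30.3% rose. The list median was 1.59 against 0.18 for all genes. The ligand gene Jag1 rose by 2.31 (SE 0.28, edgeR adjusted p = 3.18e-09) and was above the wild-type median in 28 of 28 embryos. The sheddase Adam10 rose by 1.71 (SE 0.27) and the target gene Hes1 by 3.84 (SE 0.72). Hes1, and Nkd1 of the Wnt list, had wild-type medians of 0 and 0.628 CPM. They passed the low-count filter mainly through the maternal deletion group, where they are high. Nothing is therefore read from the place of such genes in the list counts and medians. In the Wnt list, 7 of 21 rose, a share near that of all genes, and none fell (median 0.72). It was led by the inhibitor Nkd1 at 3.64 (SE 0.64), the co-receptor Lrp5 at 3.09 (SE 0.57) and the transcription factor Lef1 at 2.43 (SE 0.44). In anti-SMARCA5 against uninjected embryos Lef1 passed too. There, Nkd1 (-0.06, edgeR adjusted p = 0.898) and Lrp5 (0.37, edgeR adjusted p = 0.334) did not pass.

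In the retinoic acid list, 5 of 6 tested genes rose and 1 fell (median 1.14). Rdh10, which makes retinaldehyde from retinol, rose by 1.25 (SE 0.28), and the receptor gene Rarg fell by 2.58 (SE 0.66). In the Hox list 3 genes could be tested and 2 rose, Hoxa7 by 1.02 (SE 0.32) and the cofactor Meis2 by 1.94 (SE 0.35). Of the CUT homeobox list 1 of 4 rose, Satb1 by 1.93 (SE 0.36). The insulin list was split, with 8 of 25 higher and 6 lower, beside 30.3% of all genes higher. Its changed genes included Foxo1 at 1.78 (SE 0.28) and Sos1 at -1.90 (SE 0.44). In the adrenergic list 3 of 6 rose, among them the monoamine transporter Slc18a2 by 2.24 (SE 0.43). All of the genes named from these lists passed the edgeR test after maternal deletion at an adjusted p under 0.05. With total counts only, which moves the median change of all genes from 0.18 to -0.04, Hoxa7 did not pass (0.73, adjusted p = 0.0544), which leaves 1 of 3 in the Hox list, and the insulin list had 5 higher and 6 lower.

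Against uninjected embryos, 27.9% of all genes changed and 17.5% rose. The list counts in anti-SMARCA5 embryos were 7 higher and 0 lower of 26 for Notch, 7 and 2 of 33 for Wnt and 3 and 1 of 9 for retinoic acid. They were 4 and 0 of 7 for Hox, 2 and 0 of 5 for CUT homeobox, 6 and 2 of 31 for insulin and 4 and 0 of 13 for adrenergic genes. Among the higher genes were the Notch ligand gene Dll4 at 2.92 (SE 0.75), Hoxb9 at 2.98 (SE 0.76), Onecut1 at 2.03 (SE 0.52) and Lef1 at 2.26 (SE 0.50). Dll4 and Hoxb9, with uninjected medians of 0 CPM, passed the low-count filter through the anti-SMARCA5 group, where they are high. In the Hox list 7 genes could be tested here, against 3 between the controls. Nothing is therefore read from the place of such genes in the list counts. The list counts also depend on the scaling. With total counts only, which moves the median change of all genes from 0.13 to -0.29, they were 3 and 1 for Notch, 2 and 5 for Wnt, 0 and 1 for retinoic acid, 4 and 0 for Hox, 2 and 0 for CUT homeobox, 2 and 4 for insulin and 0 and 1 for adrenergic genes. All 7 members had a positive change against both controls under every scaling run. The rule picked them for rises in these comparisons, so nothing is read from this beside the lists. Against IgG, where 3.03% of genes changed, Rdh10 was the single gene of these 7 lists that passed, at 0.61 (SE 0.17, edgeR adjusted p = 0.04), and it did not pass with total counts only. With the replicate block, 28.1% of all genes changed against IgG and 13.1% rose. The list counts were then 4 higher and 1 lower of 22 for Notch, 8 and 2 of 31 for Wnt and 3 and 0 of 8 for retinoic acid. They were 2 and 0 of 5 for Hox, 3 and 0 of 5 for CUT homeobox, 5 and 2 of 31 for insulin and 3 and 0 of 13 for adrenergic genes.

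Ranked over the 31 anti-SMARCA5 embryos by Spearman rho with the mean standardised level of the 7 genes, the closest of 10743 other genes were Myo5c (rho = 0.88), which encodes a myosin motor, Pax6 (0.86), Otx1 (0.85), the noncoding RNA Meg3 (0.83) and 6330403K07Rik (0.82). Pax6 and Otx1 encode homeobox factors of the eye and forebrain. Over all 66 TrimAway embryos the closest were Dll4 (0.83), Celsr2 (0.83), Rassf1 (0.82), Pax6 (0.82) and Dpysl2 (0.82). These are the top ranks of a search and carry no test. In the deletion experiment, Pax6 had medians of 36.2 CPM in maternal deletion and 1.10 CPM in wild-type embryos, and Otx1 11.8 and 0 CPM, whereas Myo5c was at 0 in both.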

How the data were processed

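Polyadenylated RNA of single embryos was read from 2 tables of whole-number counts per gene that the authors deposited, 1 per experiment. Reads were trimmed with Trim Galore 0.6.5 and cutadapt 2.3 and aligned with HISAT2 2.1.0, per the submitters' processing notes, to GRCm38. The annotation release, the strand of counting and the handling of duplicates are not given in the sources used here. Odd counts outnumbered even ones (134662 table cells of 1, 30228 of 2, 84269 of 3 and 23199 of 4), for a reason not given in the sources used here, so the floor of 3 counts, which covers counting error only, may be too small. Lines with the same identifier were summed (25900 genes), and 19 embryo libraries under 100000 counts were left out. The 2 tables were scaled separately.

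The members and gene lists were chosen with earlier results of these data known. Tests used edgeR 4.0.16 in R 4.3.3 with TMM, filterByExpr and the robust quasi-likelihood test, Benjamini-Hochberg adjusted over all tested genes, each comparison fitted on its own groups. Because 6 of the 7 genes failed the filter after deletion, their values come from the fit without it. DESeq2 1.42.0, RLE and total-count scaling, depth and replicate choices were alternatives. Fits with the filter, for deletion and for anti-SMARCA5 against uninjected embryos, were tested on simulated data. The fit without the filter, used for those 6 genes, was not. Groups were paired by replicate number in the fits with the replicate block, though whether groups of the same number shared a pool is not established here. The correlation of same-numbered deviations was 0.54 for deletion, 0.60 and 0.08 for anti-SMARCA5 against IgG and uninjected, and 0.42 between the controls, each over 2 shared numbers. Correlations used log2(CPM + 1), two-sided permutation tests of 100000 resamples and adjustment over 21 relations. Detection meant more than 3 counts. Promoter windows came from RefSeq and 6 of the 7 genes were searched. Named genes were the 7 members, Smarca5 and Trim21, up to 4 genes per list with the smallest adjusted p in the deletion comparison and up to 4 against uninjected embryos, and the 5 most similar genes over each of 2 sets of embryos. A gene that this rule names is not reported here.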

Additional observations from a re-analysis of the deposited data

Results flagged for a closer look

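Cyp26a1 and Wnt3 responded differently to maternal deletion in the 2 collections of embryos, by the edgeR interaction test without a low-count filter. The fitted difference, replicate 2 minus replicate 1, was 7.40 on the log2 scale for Cyp26a1 (adjusted p = 0.0211) and 7.66 for Wnt3 (adjusted p = 0.0161). All 14 wild-type embryos of replicate 2 had 0 counts of both genes, so these fitted values depend on the prior count and do not measure a size. Cyp26a1 was detected in 2 of 13 maternal deletion embryos of replicate 1 and in 10 of 15 of replicate 2, and Wnt3 in 1 and 5. Well E05 held 503 of the 610 Wnt3 counts of the maternal deletion embryos of replicate 2. In wild type, Cyp26a1 was detected in 0 of 8 and 0 of 14 embryos, and Wnt3 in 1 of 8 and 0 of 14. The median total of the maternal deletion embryos was 702651 counts in replicate 1 and 4686051 in replicate 2. The part of depth and of sequencing lane in this difference was not tested.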

How the results depend on the processing

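How many of the 7 genes were called depended on the low-count filter. The number that changed after maternal deletion was 1 with the filter, 5 without it, 4 with DESeq2 and 6, 5, 6, 5 and 6 in fits without the filter chosen after seeing the data (with the replicate block, with a depth minimum of 500000, without the libraries against their label, with total counts only, and without wells D03 and E05). Leaving out 1 replicate gave 0 to 1 with the filter, the 0 because Adra2b then failed it, and 3 to 6 without it. Wnt3 reversed to -0.13 without replicate 2, and lost the threshold together with Cyp26a1. The change of Adra2b kept its direction and its side of the threshold in all 15 alternatives that gave a value, from 2.81 to 7.68. The number of genes with a difference between the replicates went from 0 with the filter to 2 without it. The cause of these shifts was not tested, beyond the number of genes that each fit holds.

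Over all genes, 4825 changed after deletion with the filter, 10416 without it, and 10220, 8462, 11208, 10222 and 10606 in the same added fits. Leaving out 1 replicate gave 2801 to 3879, and 8801 (without replicate 1) and 4624 (without replicate 2) without the filter. Against IgG the count of 317 became 2835 with the replicate block, 1208 with DESeq2, 64 with total counts only, 3010 without the filter, 150 at a depth minimum of 500000, 4667 without the filter and with the block, and 0 (without replicate 1) to 591 (without replicate 2) when 1 replicate was left out. Against uninjected embryos 2999 became 6184 without the filter, 6508 with the block added, and 1 (without replicate 1) to 2921 without 1 replicate. Between the controls 0 became 43 with DESeq2, 881 without the filter and 0 to 1 without 1 replicate. The median number of genes per embryo fell to 4 in anti-SMARCA5 embryos after thinning and at 10 CPM, and to 0 in IgG and uninjected embryos at 10 CPM. Pairs past the threshold went from 17 to 11 with CPM of total counts in anti-SMARCA5 embryos, and from 1 to 2 with the replicate block in maternal deletion. Among the 7 genes, the replicate block changed the call of Onecut2 after deletion and no other.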
